A study of Drosophila melanogaster with 12 samples.

Results

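Open chromatin of late embryos whose mothers lacked HIRA was set against that of younger wild-type embryos, to ask how far mutant embryos that are arrested or delayed resemble an earlier wild-type stage. The comparison used the peak lists of 4 of the 12 ATAC-seq libraries of the series, 2 of late HIRA mutant embryos collected 2 to 3 h after egg laying and 2 of early wild-type embryos collected at 0.5 to 1.5 h. ATAC-seq cuts accessible DNA with the Tn5 transposase, and a peak is a stretch where the cut fragments pile up. A region was a pair of peaks, 1 from each replicate of a group, that overlapped by 20% or more of both, merged. This gave 3157 early wild-type regions and 5589 late HIRA mutant regions, 8746 of the 29842 regions of the 6 groups of the series. A region was called matched in a library of another group when a peak there overlapped it by 20% or more of both, shared when matched in both libraries of that group, and unshared when matched in neither.

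The mutant embryos carry the label M-Z+. Their mothers were null for HIRA through CRISPR alleles, so the egg held no maternal HIRA product. Hira lies on the X chromosome, so only daughters could inherit a working copy from their father, despite the Z+ of the label. The wild type was the w1118 strain, and the same wild type at 2 to 3 h (2 libraries, 7581 regions) served as the like-aged reference. Each library came from a pool of hand-selected embryos, with more embryos per pool at the early stage than at the late one. The study describes late mutant embryos as a mix. Some reached the nuclear cycle at which wild type switches on its genome widely, and most had stopped or delayed nuclear divisions. The makeup of the pools used here was not measured. Early wild type and late mutant differ in age and in genotype together, so the part of each cannot be told apart without the late wild type. The study's methods call the replicates biological, without saying whether they came from separate crosses. With 2 libraries against 2, the smallest p an exact permutation test can give is 0.333, and no test here could pass a threshold.

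HIRA is a histone chaperone that deposits the variant histone H3.3 outside DNA replication, with Yemanuclein as its partner. In Drosophila it is best known for building H3.3 chromatin on the paternal genome at fertilization, and embryos from mothers without it can develop with the maternal chromosomes alone; ploidy and embryo sex were not measured in these libraries. Early fly embryos divide as naked nuclei with little transcription, and the zygotic genome is then switched on while pioneer factors such as Zelda and the GAGA factor (GAF) open promoters and enhancers.

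The sequences below show what an opened region of each kind looks like, chosen as the widest region of its class that held a motif in the central window and touched no annotated UTR. All are 200 bp of the plus strand of the dm6 genome, and capitals mark a match to the Zelda motif CAGGTAG or the GAF motif GAGAGAG, read on either strand. A match is a description of the letters and not a binding site. The first was shared by early wild type and late mutant, the next pair was in both late mutants and both late wild types but in neither early wild type, the fourth was in the late mutants and in no wild-type library of the HIRA set, and the last was in early and late wild type but in neither late mutant.
cno, intron, chr3R:5212138-5212337: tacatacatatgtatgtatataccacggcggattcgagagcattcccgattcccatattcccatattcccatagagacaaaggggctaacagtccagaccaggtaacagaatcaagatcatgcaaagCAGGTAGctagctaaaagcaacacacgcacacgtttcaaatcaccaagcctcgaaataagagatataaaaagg
Dad, intron, chr3R:17056425-17056624: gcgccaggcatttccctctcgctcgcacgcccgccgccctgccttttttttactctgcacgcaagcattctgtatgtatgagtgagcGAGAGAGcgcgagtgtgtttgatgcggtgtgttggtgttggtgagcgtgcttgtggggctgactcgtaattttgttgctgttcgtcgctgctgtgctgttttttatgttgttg
CG34171, intron, chr2L:18369541-18369740: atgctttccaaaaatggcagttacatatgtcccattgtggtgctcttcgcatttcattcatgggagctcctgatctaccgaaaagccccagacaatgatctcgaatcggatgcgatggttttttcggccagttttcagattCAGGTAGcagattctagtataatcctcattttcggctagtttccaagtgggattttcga
Vsx1, nearest start site, intergenic, chrX:5579496-5579695: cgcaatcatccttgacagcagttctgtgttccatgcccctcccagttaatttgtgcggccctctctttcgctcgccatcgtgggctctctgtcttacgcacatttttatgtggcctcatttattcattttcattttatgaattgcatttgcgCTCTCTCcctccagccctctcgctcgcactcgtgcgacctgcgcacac
Arp6, within 1 kb of a start site, chrX:15736784-15736983: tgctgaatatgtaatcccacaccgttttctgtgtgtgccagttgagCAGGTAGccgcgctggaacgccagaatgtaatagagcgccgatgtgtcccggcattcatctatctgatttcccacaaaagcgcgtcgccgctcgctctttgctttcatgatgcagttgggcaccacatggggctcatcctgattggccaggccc
At cno, which encodes the junction protein Canoe, the overlapping peaks were 1163 and 1383 bp wide in early wild type, 1047 and 1189 bp in late mutants, and 1694 and 1548 bp in late wild type. At Dad, the inhibitory Smad of Dpp signalling, they were 695 and 696 bp in late mutants and 462 and 472 bp in late wild type, with none in early wild type. At Vsx1, a homeobox gene of the visual system and early head, they were 543 and 565 bp in late mutants with none in early or late wild type. At Arp6, an actin-related protein of chromatin remodelling complexes, they were 394 and 286 bp in early and 395 and 275 bp in late wild type, with none in either late mutant. Width is used here as the only measure of strength, because the lists hold a position and no height, read count or q-value.

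The late mutants had more peaks than the younger wild type. The 2 late mutant libraries held 10595 and 7122 peaks, the 2 early wild-type libraries 4707 and 5449, and the 2 late wild-type libraries 11432 and 9998. The late mutants thus lay above both early libraries, and 1 of them overlapped the late wild type range while the other fell below it. On the log2 scale the mean number was 0.80 higher than in early wild type, beyond the spread between replicates of 0.43 (exact permutation p = 0.333, two-sided, n = 2 and 2, the smallest possible). Read depth is unknown for every library, so a share of this difference due to depth was not tested. Replacing the early wild type by the other early wild-type pair of the series, deposited with the dPCIF1 mutants, reduced the difference to 0.21 (exact permutation p = 1), and leaving out late mutant 1 reduced it to 0.49.

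The regions open in young wild-type embryos were mostly open in the late mutants too. Both late mutants matched 2605 of the 3157 early wild-type regions (82.5%, with a 95% Wilson interval of 81.2 to 83.8), 1 of them matched 361, and 191 (6.05%) had no match. In late wild type the same regions were matched in both libraries in 96.5% of cases and in neither in 32 cases. Taken by library, 92.0% and 84.4% were found in late mutants 1 and 2 and 98.0% and 97.5% in the late wild types, so both mutant libraries lay below both late wild types. The intervals cover counting error over regions only.

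**Figure D1:**
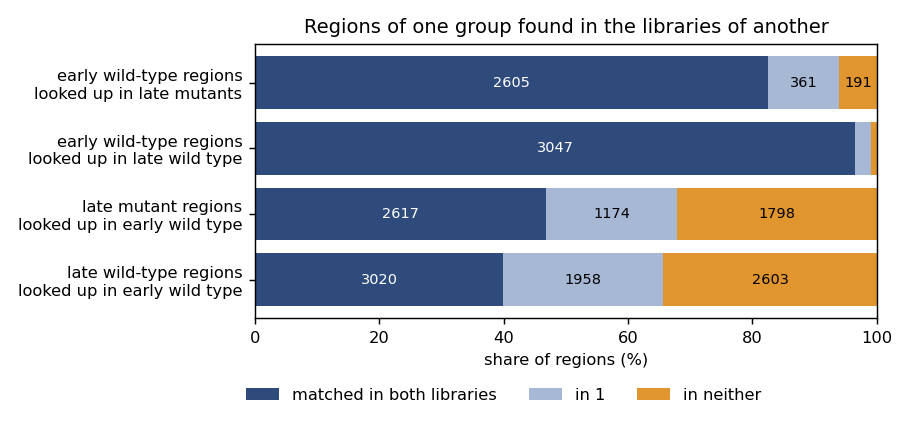
Share of regions (horizontal axis, %) of the group named first that were matched in both (dark blue), 1 (light blue) or neither (orange) of the 2 libraries of the group named second, with the number of regions in the bars. The bar for early wild-type regions is filled by 2605 shared regions in late mutants and 3047 in late wild type, while 1798 late mutant and 2603 late wild-type regions were in neither early library.

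In the other direction about as large a share of late mutant as of late wild-type regions had no match in young wild type. Of 5589 late mutant regions, 2617 (46.8%) were matched in both early wild types, 1174 in 1 and 1798 (32.2%, interval 31.0 to 33.4) in neither. Of 7581 late wild-type regions, 39.8% were matched in both early libraries and 34.3% in neither. The share of mutant regions in neither early library rose to 53.9% when all peaks of late mutant 1 were used without late mutant 2, and was 42.5% without late mutant 1, since peaks of a lone library are not filtered by a replicate. With the same number of widest peaks (4707) taken from each library it was 20.5%.

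The 1798 late mutant regions that were absent from young wild type fell into 3 kinds. A total of 742 (41.3%) were matched in both late wild types, 485 in 1 and 571 (31.8%, interval 29.6 to 33.9) in neither. The mutants therefore held regions that the wild type also opens with age beside regions that neither wild-type stage of the HIRA set held in these lists. Among the 2617 mutant regions shared with both early libraries, 2580 were also in both late wild types and only 6 in neither.

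Almost no region shared by early wild type and late mutant was absent from late wild type. Of the 32 early regions in neither late wild type, 5 were in both late mutants, 13 in 1 and 14 in neither. At 3 of the 5, at SMSr (a sphingomyelin synthase relative) and at 2 places in Nrt (the adhesion protein Neurotactin), late wild-type peaks of 1190 to 3242 bp did lie over the region and missed the match through their width. The remaining 2 had no late wild-type peak at all. At CG9663 (chr2L:3303078-3303350, promoter, with a GAF motif) the peaks were 273 and 214 bp in early wild type and 593 and 718 bp in late mutants. At the noncoding gene lncRNA:CR43492 (chrX:18585142-18585443) they were 302 and 261 bp in early wild type and 441 and 447 bp in late mutants.

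The overlap of whole peak sets, measured by the Jaccard index (bp covered by both libraries over bp covered by either), put the late mutants nearer to late than to early wild type, with the 2 mutant libraries far apart in degree. Late mutant 1 had indices of 0.283 and 0.314 with the early wild types and 0.400 and 0.411 with the late ones. Late mutant 2 had 0.337 and 0.356 with the early and 0.355 and 0.363 with the late ones. Late mutant 1 was thus clearly closer to late wild type, while the indices of late mutant 2 for both stages almost met. The mean difference, early minus late, was -0.060, and it was -0.013 without late mutant 1 and -0.107 without late mutant 2, so its size depended on 1 library. Unequal covered length limits the index. Early wild type covered 1808 and 2210 kb, late mutants 4433 and 2885 kb and late wild type 5083 and 4462 kb. With the 4707 widest peaks of each library the difference was -0.037. Late mutant 1 then had means of 0.321 with early and 0.385 with late wild type, and late mutant 2 of 0.349 and 0.360. With all peaks and the early wild type of the dPCIF1 set the difference was -0.033. Replicates of a group had indices of 0.422 in early wild type, 0.432 in late mutants and 0.528 in late wild type. Late wild type and early wild type had a mean of 0.335 over 4 pairs, against 0.322 for late mutants and early wild type. The order of these means turned on 1 library, since late mutant 2 had a mean of 0.346 and late mutant 1 of 0.298 with early wild type. For peaks within 1 kb of a transcription start site (TSS) late mutant 2 leaned the other way, with a mean of 0.381 for early and 0.366 for late wild type, while late mutant 1 had 0.344 and 0.431.

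**Figure D2:**
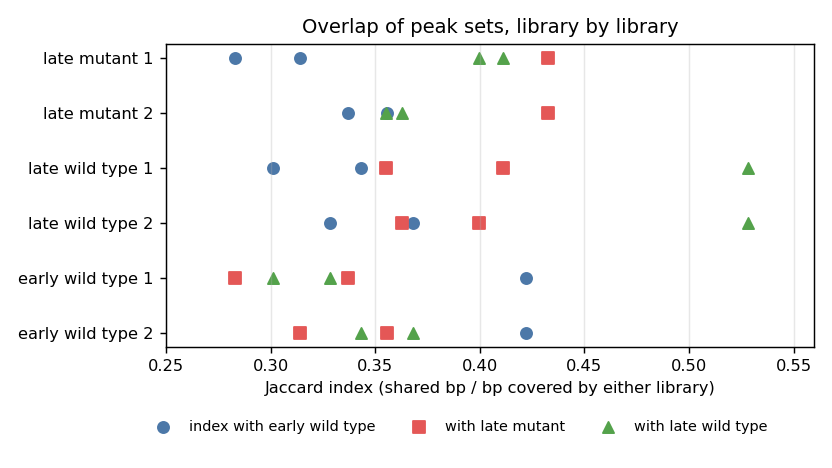
Jaccard index in bp (horizontal axis, starting at 0.25) of each library with every library of early wild type (blue circles), late HIRA mutant (red squares) and late wild type (green triangles) other than itself. For late mutant 1 both triangles lie right of both circles, while for late mutant 2 circles and triangles lie between 0.337 and 0.363.

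The regions that wild type opens between the stages were the least often found in the late mutants. Of 2603 late wild-type regions in neither early library, 732 (28.1%, interval 26.4 to 29.9) were matched in both late mutants and 1050 (40.3%) in neither, whereas of 3020 late wild-type regions already in both early libraries 2536 (84.0%) were in both mutants and 154 in neither. Late mutant 1 held 54.1% and late mutant 2 held 33.7% of the late-opening regions, against 93.0% and 85.8% of those already open. Leaving out late mutant 2 therefore raised the share from 28.1% to 54.1%, and in both libraries late-opening regions were found less often than early ones. Narrow peaks are missed more easily, and late-opening regions were narrower (median 419 against 634 bp). Within 5 classes of equal size by width the shares in both mutants were 21.5%, 28.4%, 30.8%, 37.5% and 46.7% for late-opening regions, and 49.4%, 73.6%, 78.8%, 86.6% and 91.9% for those already open. The already open regions lay higher in every width class and in both mutant libraries.

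**Figure D3:**
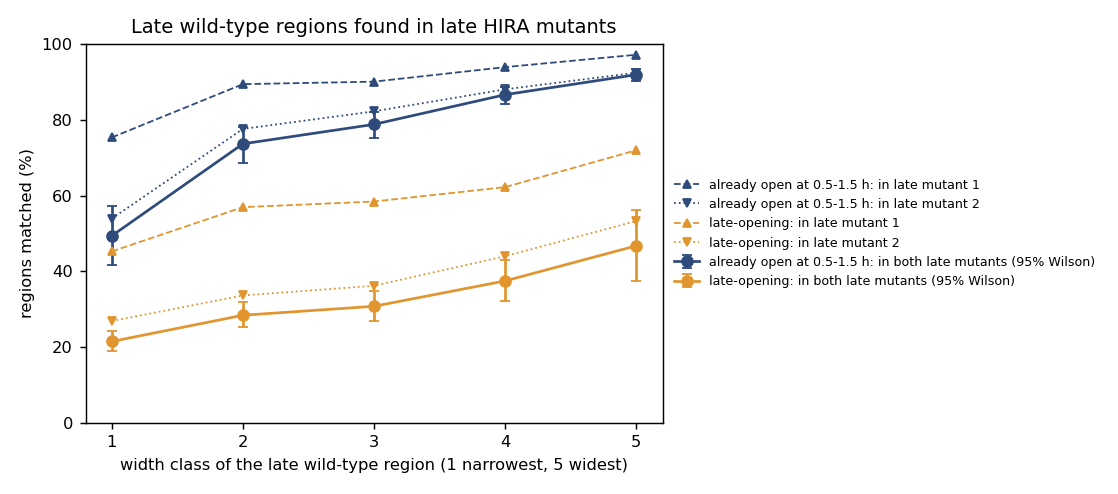
Share of late wild-type regions matched in late HIRA mutants (vertical axis, %) against the width class of the region, for regions already in both early wild types (blue) and in neither (orange). Solid lines with 95% Wilson bars show regions in both mutants, dashed and dotted lines late mutants 1 and 2. In the widest class 46.7% of late-opening and 91.9% of already open regions were in both mutants.

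Width also ordered the early regions. In the narrowest of 5 width classes 63.0% of the early wild-type regions were in both late mutants and 90.8% in both late wild types, and in the widest class 95.3% and 99.5%. Over the 2570 regions that early wild type shared with both later groups, the matching peak had a median width of 410 and 443 bp in early wild type, 522 and 463 bp in late mutants, and 608 and 590.5 bp in late wild type. At these regions the late mutant peaks were thus wider than those of young wild type and narrower than those of late wild type, without overlap between groups. Over all peaks the median widths were 334 and 353 bp in early wild type, 356 and 352 bp in late mutants and 377 and 381 bp in late wild type. Early wild type and late mutants then overlapped. Whether width follows read depth, which is unknown, was not tested.

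Shared and unshared regions differed in where they lay. Among late mutant regions, 60.1% of those shared with early wild type came within 1 kb of a TSS, against 40.3% of those in neither early library, while 23.1% of all bases lie that close. Coding exons held 4.28% of the shared and 14.2% of the unshared regions, introns 22.1% and 27.5%, and intergenic sequence 11.9% and 15.7%. The promoter share of all peaks was 56.3% and 55.2% in early wild type, 46.8% and 48.1% in late mutants, and 50.7% and 53.2% in late wild type, without overlap between early wild type and late mutant (exact permutation p = 0.333). The 191 early regions missing from both late mutants had 63.4% promoters (interval 56.3 to 69.9), close to the 59.3% of the shared early regions.

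Both pioneer factor motifs were more frequent in shared than in unshared regions. Zelda motifs stood in the central 200 bp of 9.25% of the mutant regions shared with early wild type and of 3.89% of those in neither, and GAF motifs in 16.3% and 11.7%. With motifs sought in the whole region, and not only its centre, the difference between unshared and shared was -13.4 percentage points for Zelda and -11.9 for GAF, where the greater width of shared regions (median 555 against 414 bp) enters. Windows moved by 1 kb held them in 1.42% and 3.36% of cases, and windows at all 23694 annotated TSS in 1.01% and 4.45%. The early wild-type regions missing from both late mutants were poor in these motifs. They held a GAF motif in 4.19% (8 of 191, interval 2.14 to 8.05) and a Zelda motif in 4.71%, against 16.0% and 10.4% of the shared early regions. By library the Zelda share of all peaks was 8.73% and 7.95% in early wild type and 5.59% and 6.30% in late mutants, which did not overlap (exact permutation p = 0.333). The GAF share was 12.6% and 11.4% in early wild type and 9.93% and 12.1% in late mutants, which did overlap. The difference in GAF share between unshared and shared mutant regions was -4.58 percentage points, and it was -7.08 without late mutant 1, -8.25 without late mutant 2 and -7.45 with the early wild type of the dPCIF1 set.

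Late-opening regions with a GAF motif were found in the late mutants more often than those without. Of 172 such regions 47.1% (interval 39.8 to 54.5) were in both mutants, against 26.8% (25.1 to 28.6) of the 2431 without. Late mutant 1 held 69.2% and 53.1% and late mutant 2 held 49.4% and 32.5%, so both libraries showed the difference. The GAF regions were not wider (median 345 against 426 bp), and in the 3 narrower width classes their shares were 35.4%, 53.7% and 73.9% against 19.9%, 26.8% and 28.7%. The upper classes held 9 and 3 such regions, too few to read. Late-opening regions with a Zelda motif were in both mutants in 36.0% of 111 cases against 27.8% without, with intervals that overlap. Those with the motif TATCGAT of DREF, a factor of housekeeping promoters, were in both mutants in 18.3% of 104 cases (12.0 to 26.8) against 28.5% (26.8 to 30.3). Late mutant 2 alone held 31.7% and 33.7%. Late wild-type regions already in both early libraries went the same way, so these differences were not particular to late-opening regions. Of those with a GAF motif 90.8% were in both mutants against 82.9% without. The shares were 90.5% against 83.3% for Zelda and 75.3% against 84.2% for DREF.

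The X chromosome held a larger share of peaks in the late mutants than in late wild type, and so it did in the early libraries of the HIRA set. It carried 18.8% and 19.5% of late mutant peaks, 19.4% and 18.2% of early wild-type peaks and 14.5% and 14.4% of late wild-type peaks, and it makes up 17.1% of the assembled length and holds 16.5% of the TSS. Late mutants and early wild type of the HIRA set thus overlapped, and both lay above late wild type (difference between late mutant and late wild type 4.72 percentage points, SD 0.519 and 0.0700, n = 2 each, exact permutation p = 0.333). A high X share was not a property of every early library, because the early wild-type pair of the dPCIF1 set had 12.2% in both libraries. The early HIRA mutants had 20.8% and 20.4%. The difference was also present among wide peaks. Of the widest 1000 peaks in each library 20.4% and 19.9% lay on X in late mutants, 21.2% and 19.8% in early wild type and 14.5% and 16.3% in late wild type. The values were 21.4% and 22.4% in early HIRA mutants and 13.9% in each early wild type of the dPCIF1 set.

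Among late mutant regions the share on X was highest in those that no wild-type library of the set held. These were a minor part of the mutant regions on X, 193 of 1080. Of the 571 mutant regions in neither early and neither late wild type, 193 (33.8%, interval 30.04 to 37.8) were on X, against 12.0% (9.85 to 14.5) of the 742 that both late wild types shared and 19.3% of the 2617 shared with early wild type. Peaks of late mutants 1 and 2 that matched neither late wild type were on X in 25.9% and 29.2% of cases, those matching both in 16.0% and 17.0%. In the opposite direction late wild-type peaks that matched neither late mutant were on X in 11.7% of cases in both libraries. Early wild-type regions in neither late mutant were on X in 28.3% of cases (54 of 191, interval 22.4 to 35.0), against 19.6% (18.1 to 21.1) of those in both, so the X share was also high among the early regions missing from the mutants. Put by chromosome, 17.9% of the late mutant regions on X were in no wild-type library of the HIRA set. The share was 6.74% on 3R, 7.31% on 3L, 8.93% on 2R, 10.9% on 2L and 11.2% on chromosome 4. The early wild type of the dPCIF1 set did not enter this class. The regions were spread along X, with shares of 11.0 to 33.3% in 12 bins of 2 Mb, highest in the last 2 bins. On X the peak sets of late mutants and early wild type had a mean Jaccard index of 0.320 against 0.427 for late and early wild type, while on the autosomes the values were 0.323 and 0.319. Which measured or unmeasured feature of the pools goes with the X share was not tested.

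**Figure D4:**
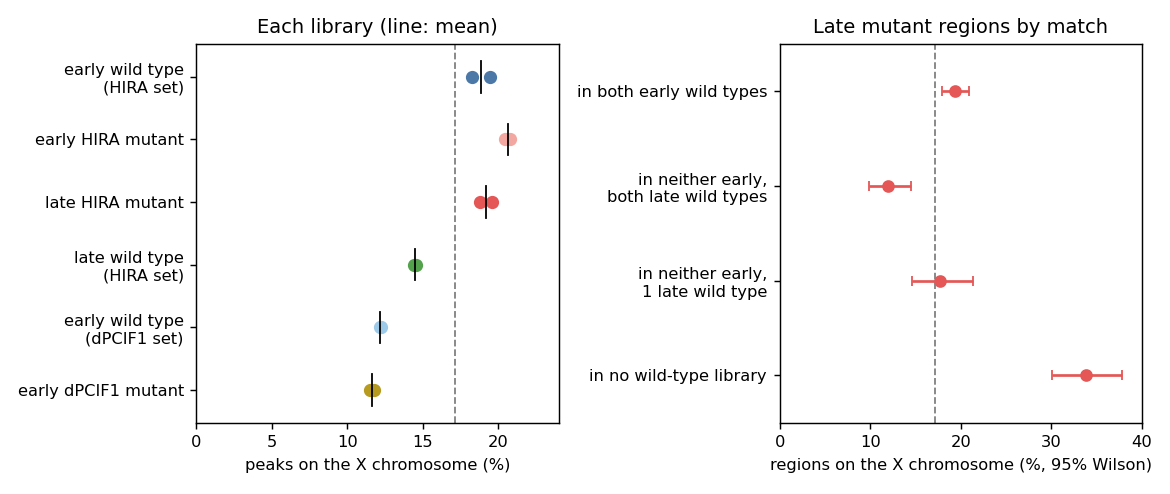
Left, share of peaks on the X chromosome (horizontal axis, %) in each of the 12 libraries, as points with a line at the mean of the group. Right, share on X of late mutant regions by their match in wild type, with 95% Wilson intervals. The dashed line is the 17.1% of assembled length that X makes up. Late mutants lie with early wild type of the HIRA set near 19%, and regions in no wild-type library of that set reach 33.8%.

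Among the widest shared regions the first was at the noncoding gene asRNA:CR45366 (chr2L:355871-358339), where peaks were 2141 and 2424 bp in early wild type and 2470 and 2473 bp in late mutants. Others were an intron of CG15343 on X, with 2048 and 2028 bp in early wild type and 2082 and 2070 bp in late mutants, the promoter of CG14427 on X, and the repeat-rich surroundings of the pseudogene CR41519 near the centromere of 2L, where reads may map less surely. At CG14427 the peaks were 1381 and 1375 bp in early wild type and 1547 and 775 bp in late mutants, so the mutant libraries lay on either side of the early ones.

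Among the early regions missing from the late mutants, the widest 4 were open at both wild-type ages. The widest lay near CG2233 on X (chrX:8035981-8036805), with peaks of 803 and 825 bp in early wild type, 790 and 841 bp in late wild type and none in either late mutant. Next came the promoter of msl-2 (chr2L:3465517-3466227), with 671 and 704 bp in early wild type, 876 and 857 bp in late wild type and none in late mutants or early HIRA mutants. msl-2 encodes the limiting subunit of the male dosage compensation complex, which binds the X chromosome. The third was in an intron of Zmynd8. The fourth lay within run (chrX:20691448-20692102, midpoint 1105 bp from the nearest TSS), with 562 and 648 bp in early wild type, 697 and 668 bp in late wild type, none in late mutants and 373 bp in 1 of the early HIRA mutants. run encodes the Runt transcription factor, a pair-rule protein and a counting element of the X dose, and another peak within 1 kb of a run TSS was present in both late mutants. The fifth, at CG3253, was less firm, since late mutant 2 had an overlapping 302 bp peak and late wild type 1 had none.

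The widest regions of the late mutants that were in both late wild types but unmatched in young wild type lay at TfIIS, chn and nAChRalpha4. TfIIS encodes an elongation factor of RNA polymerase II, and its promoter (chr2L:15059611-15061260) had peaks of 1354 and 1469 bp in late mutants, 696 and 370 bp in late wild type and 263 and 307 bp in early wild type. At chn, a zinc-finger repressor of neural genes, and nAChRalpha4, an acetylcholine receptor subunit, early wild-type peaks of 200 to 282 bp also lay inside the mutant regions, so the wide mutant regions there were not wholly without an early peak, although at nAChRalpha4 only early wild type 1 had one. The next 2, in an intron whose nearest TSS was that of snoRNA:Me28S-C2789 and in a coding exon nearest to lncRNA:CR45667, had no early wild-type peak.

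The widest late mutant regions in no wild-type library of the HIRA set lay near gus, CG11106, dnc, lncRNA:CR43878 and amn. Of these 5, 3 were on X, beside 193 of all 571 such regions, and 5 are too few to read. At the promoter of dnc, the cAMP phosphodiesterase Dunce (chrX:3175524-3176497), the peaks were 923 and 908 bp in late mutants with none in any other library of the HIRA set. At amn, a neuropeptide gene (chrX:19888849-19889756), they were 908 and 713 bp, and the early HIRA mutants had 449 and 304 bp. Both mutant ages thus had peaks here and neither wild-type age of the HIRA set did. At gus (chr2R:5108125-5109710), whose product binds the germline helicase Vasa in the fly ovary, they were 1586 and 1516 bp, and 1 of the early HIRA mutants had 305 bp. Eip75B and kek5 were chosen after the counts were seen. Eip75B, a nuclear receptor gene of the ecdysone response, had 4 regions in late mutants and late wild type but not in early wild type. At kek5, a transmembrane protein gene on X, 4 were in late mutants and in no wild type of the HIRA set. A further 6 of the latter kind lay at 2SrRNA:CR45864 in the ribosomal DNA, a multicopy family in which reads cannot be placed with certainty.

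At the level of genes, a promoter was called open in a library when a peak lay within 1 kb of any of its TSS. Of 18277 annotated genes, 2053 (11.2%) were open in both libraries of both groups, 715 (3.91%) in both late mutants and no early wild type, and 155 (0.848%) in both early wild types and no late mutant. A further 4025 (22.0%) differed between replicates and 11329 (62.0%) had no peak in the 4 libraries. Of the 715, 377 were also open in both late wild types. Neighbouring genes that start head to head share a peak, so genes are not independent.

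The genes that pattern the embryo were mostly open both in young wild type and in late mutants. All 10 gap and terminal genes, all 8 Hox genes, all 7 cellularization genes (nullo, bnk, slam and others of the first zygotic wave) and all 5 genes of the sex determination signal, Sxl and its X-linked activators, were open in all 4 libraries, against 11.2% of all genes. Of 9 pair-rule genes 8 were, with a peak at eve missing in late mutant 2. Of 18 dorsoventral genes 16 were, with sog missing in early wild type 1 and Doc2 in 1 replicate of each group. Of 9 segment polarity genes 8 were, and gsb-n, a Pax gene of the neuroectoderm, was the member open in both late mutants but in neither early wild type. Of 10 E(spl) genes, targets of Notch, 5 were open in all 4 libraries and 3 in some of them. The early HIRA mutants had 4 and 3 of the Hox genes open, 4 and 6 of the cellularization genes and 5 and 6 of the pair-rule genes. They had 4 and 7 of the segment polarity, 10 and 17 of the dorsoventral and 8 and 10 of the gap and terminal genes open. All 5 sex signal genes were open in both of these libraries. Young wild type is thus not an earlier stage of the mutants.

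Other lists differed more between the stages. Among 20 genes of the nuclear division cycle 9 were open throughout. A further 3 were open in both late mutants and in neither early wild type, a share of 15.0% against 3.91% of all genes. The 3 were Cdk2, which was open in both late wild types too, twe, the maternal Cdc25 phosphatase Twine, open in 1 late wild type, and png, the kinase Pan gu of the egg-to-embryo transition, open in neither. At png (chrX:1356165-1356923) the peaks were 759 and 500 bp in late mutants. Of 92 cytosolic ribosomal protein genes 11 were open throughout. A further 5 were open in both late mutants and in neither early wild type, and all 5 were also open in both late wild types. Only 1 was open in both early wild types and in neither late mutant. The libraries held 22 and 30 in early wild type, 40 and 26 in late mutants, and 54 and 55 in late wild type. The late mutants overlapped young wild type here and lay below late wild type, an order that all genes shared apart from the overlap. The 12.0% open throughout and the 5.43% open in late mutants but not early wild type were near the 11.2% and 3.91% of all genes. Of 15 heat shock genes 1 was open throughout, and Hsp27 was open in both late mutants and in neither wild-type age.

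**Figure D5:**
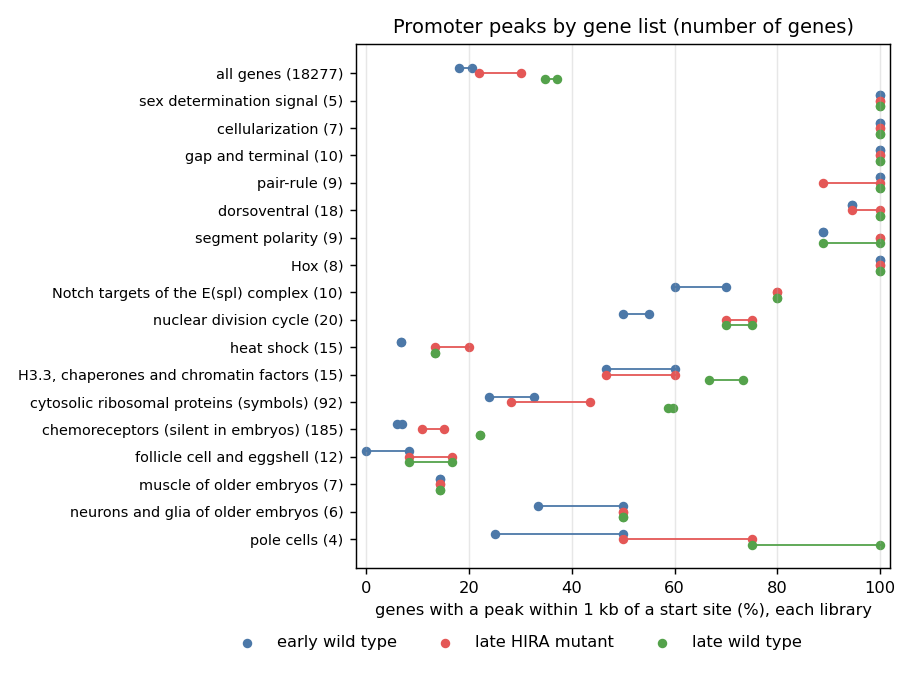
Share of the genes of each list with a peak within 1 kb of a TSS (horizontal axis, %) in each library of early wild type (blue), late HIRA mutant (red) and late wild type (green), with the 2 replicates joined by a line and the number of genes in brackets. Gap, Hox, cellularization and sex signal genes sit at 100% in all 6 libraries, while cytosolic ribosomal protein genes range from 22 of 92 in early wild type 1 to 55 in late wild type 2.

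Lists that stand for other cells or for silent genes were set beside the share of all genes, which was 17.98% and 20.6% in early wild type, 30.2% and 21.9% in late mutants and 37.1% and 34.8% in late wild type. Of 185 chemoreceptor genes, which embryos of this age do not use, 11 and 13 were open in early wild type, 28 and 20 in late mutants and 41 in each late wild type. The chemoreceptor shares, 5.95% to 22.2%, lay below those of all genes in each library and followed the same order of groups, so nothing is read from them about these genes. Of 12 eggshell and follicle cell genes 0 and 1 were open in early wild type, 2 and 1 in late mutants and 1 and 2 in late wild type, of 7 muscle genes 1 in each of these libraries, and of 6 neuron and glia genes 2 or 3, which at 33.3% to 50.0% is above the share of all genes in each library. Of 4 pole cell genes 1 and 2 were open in early wild type, 3 and 2 in late mutants and 4 and 3 in late wild type, also above the share of all genes, and vas was open throughout and nanos in late mutants but in neither early wild type.

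Single regulatory regions of the patterning genes showed both outcomes. Of 7 late-opening wild-type regions nearest to a gap or terminal gene 4 were in both late mutants, of 6 nearest to a pair-rule gene 3, of 15 nearest to a Hox gene 5, of 11 nearest to a segment polarity gene 3 and of 7 nearest to a dorsoventral gene 1, against 28.1% over all late-opening regions. Near kni, a gap gene (chr3L:20692886-20694606), peaks were 780 and 1616 bp in late wild type and 1115 and 585 bp in late mutants, with none in early wild type. Near hb, the gap gene hunchback (chr3R:8699068-8699946), they were 867 and 875 bp in late wild type and 762 and 734 bp in late mutants, with none in early wild type. The early HIRA mutants had none at the kni region and already had 284 and 313 bp at the hb region.

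Others had a peak neither in young wild type nor in the mutants. A region upstream of hry, the pair-rule gene hairy (chr3L:8665811-8666646, intergenic), had peaks of 796 and 444 bp in late wild type and none in early wild type or late mutants. One near tll, the terminal gene tailless (chr3R:30856340-30856771), had 432 and 406 bp in late wild type and none in the others. The same held for regions at the promoters of Clamp (461 and 454 bp in late wild type), a GA-repeat binding factor that recruits the dosage compensation complex, of zld (383 and 241 bp), the gene of Zelda, and of His3.3B (306 and 372 bp), which encodes H3.3. Each of these genes had at least 1 other promoter peak in an early library. At His3.3B this was early wild type 1, and neither early wild type 2 nor late mutant 2 had any peak within 1 kb of its TSS.

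The targeted gene itself gave a limited check. Within Hira and 1 kb around it (chrX:7722119-7725917) early wild type had peaks of 686 and 477 bp, late wild type 397 bp in each library, late mutant 1 had 238 bp and late mutant 2 none, and of the early HIRA mutants 1 had none and 1 had 433 bp. An early wild-type region in its coding exons (chrX:7723533-7724218) was matched in neither late mutant. Late wild type 1 had no peak over this region either, while late wild type 2 had 397 bp and early HIRA mutant 2 had 433 bp. A peak list cannot show a small deletion, so the labels were neither borne out nor contradicted by it.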

How the data were processed

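ATAC-seq was performed on pools of Drosophila melanogaster embryos, 2 libraries per group. Per the labels and the study's methods the authors trimmed reads (Trimmomatic 0.39), aligned them to dm6 (Bowtie2 2.2.5), removed reads of low mapping quality or non-unique placement (SAMtools 1.18) and called peaks in each library separately (MACS2 2.2.7.1). How the Tn5 offset was treated is not given in the sources used here. The deposited files hold 3 columns, chromosome, start and end, with no count, score or height, so depth is unknown and p-values rest on libraries alone. The narrowest peak was 200 bp, no peak ran past a chromosome end of the RefSeq Release 6 genome, and none overlapped another within a library.

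Regions, matches and Jaccard indices were computed in Python 3.11.15 (pandas 2.3.3, scipy 1.17.1), with code tested on simulated peak lists. Genes and 23694 TSS were taken from Ensembl release 115 without transposable elements. A promoter was a region within 1 kb of a TSS, other regions took the annotation at their midpoint, and motifs were sought within 100 bp of the midpoint on both strands. A class was named by its 5 regions of largest mean width percentile, by nearest TSS, and genes came from lists of developmental and marker groups. Members and lists were chosen with earlier results of these data known. Libraries of the dPCIF1 set and early HIRA mutants were used only where named. Sequences from chromosome arm 2R are not printed. A region that the naming rule picked is not reported here.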

Additional observations from a re-analysis of the deposited data

How the results depend on the processing

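Results were recomputed under 13 alternatives, giving 97 values. No result with a sign reversed, and the 3 results that are shares of regions have no sign to reverse. The Jaccard index does not use the overlap rule, so the overlap alternatives gave it no value of their own. Of the 97 values 44 were counted as unmoved and 53 as moved by 1 SD between libraries or more. Values of the log2 ratio of peak numbers were counted as unmoved while their sign held, without use of the SD. With the early wild type of the dPCIF1 set this ratio was 0.21 against 0.80, a move larger than its SD of 0.405. For the 4 differences between classes the SD was taken over the 4 pairs of a late mutant and an early wild-type library. That choice replaced the SD over the 2 late mutant libraries after a first set of values had been seen. With the earlier choice 54 values were counted as moved, again leaving out the log2 ratio. With an overlap of 50% of both peaks the shared share of early regions was 72.8%, and the share of mutant regions in neither early library 38.7%. The differences between unshared and shared mutant regions in percentage points were then -16.4 for promoters, -6.44 for Zelda and -6.41 for GAF. The X difference is mutant regions in no wild type of the HIRA set minus those in both late wild types. It was 16.3 with this overlap, against 21.8 points as reported. Cut to equal numbers, the widest peaks gave 63.1%, 20.5%, -17.0, -6.81, -6.91 and 17.7. With peaks of at least 300 bp only, the last 4 were -17.8, -7.14, -5.99 and 19.6. With the early wild type of the dPCIF1 set the values were 65.8%, 24.2%, -18.8, -5.96, -7.45 and 15.8. A promoter window of 500 bp gave -22.1, and motifs anywhere in the region gave -13.4 for Zelda and -11.9 for GAF.

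Each early wild-type and late mutant library was left out in turn, and the late wild-type libraries were always kept. This gave 0.49 to 1.06 for the log2 ratio of peak numbers, 60.7% to 92.0% for shared early regions, 40.5% to 53.9% for mutant regions in neither early library, -0.107 to -0.0129 for the difference in likeness, 33.2% to 54.1% for late-opening regions in both mutants, -21.0 to -15.5 for promoters, -6.82 to -4.18 for Zelda, -8.25 to -3.30 for GAF and 15.7 to 20.6 for X. Part of this follows from the construction, since a group of 1 library enters with all its peaks. With the replicate block, which compares libraries of the same number, the values were 0.78 for the log2 ratio, 72.0%, 57.6%, -0.0677, 49.3%, -16.9, -4.81, -5.87 and 14.9 in the same order. The labels give libraries of the same number nothing else in common. The differences between replicates of the 2 groups correlated at 0.0202 over 13420 merged peak positions. This value cannot show whether libraries of the same number shared a collection. The alternatives for the X difference were added after seeing the data. With 2 libraries per group and no read depth, a missing peak cannot be told from a peak below the caller's threshold.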
